A study of Homo sapiens with 6 samples.

Results

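The 10 genes described here, POU5F1, NANOG, SOX2, LIN28A, LIN28B, DNMT3B, SALL4, L1TD1, TDGF1 and DPPA4, are transcribed strongly in human pluripotent stem cells and were looked up by symbol among the 21134 genes of the series table, where all 10 were listed. They were followed in RNA sequencing libraries of hiPSC-CMs, stem cell-derived cardiomyocytes, to describe which pluripotency transcripts were still measured after cardiac differentiation and whether their levels differed with treatment. There were 2 libraries of untreated cells (control), 2 of cells kept for 24 h in 100 mM alcohol (alcohol), and 2 of cells given 100 mM alcohol and 1 μM losartan, a blocker of the angiotensin II receptor AT1R, for 24 h (co-treated). The labels name the cell type as cardiomyocytes from induced pluripotent stem cells and the line of all 6 libraries as H9, which is an established line of human embryonic stem cells, so the results come from the differentiated cells of 1 line. Nothing in the labels says whether the replicates of a group came from separate cultures, so p-values measure only the spread between these libraries, which may be technical.

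POU5F1 (OCT4), SOX2 and NANOG are transcription factors that bind together at many enhancers and promoters, their own included, and hold a cell in the pluripotent state. Around this core work SALL4, a zinc finger transcription factor, the RNA-binding proteins LIN28A and LIN28B, which block the maturation of let-7 microRNAs, L1TD1, an RNA-binding protein derived from a LINE-1 element, DNMT3B, a de novo DNA methyltransferase, DPPA4, a chromatin-associated protein, and TDGF1 (CRIPTO), a membrane-anchored co-receptor for Nodal. Most of these genes are switched off as stem cells turn into cardiomyocytes, although several are also used by other embryonic cells, such as SOX2 in neural progenitors and LIN28B in fetal tissues.

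The promoters of NANOG and SOX2 are shown because the composite octamer and SOX motif of NANOG is known as a sequence that POU5F1 and SOX2 bind together. The letters are the 250 bases before the start of each gene in RefSeq on GRCh38.p14, plus strand, at chr12:7789152-7789401 for NANOG and chr3:181711675-181711924 for SOX2, and the capitals mark the matched motif.
NANOG: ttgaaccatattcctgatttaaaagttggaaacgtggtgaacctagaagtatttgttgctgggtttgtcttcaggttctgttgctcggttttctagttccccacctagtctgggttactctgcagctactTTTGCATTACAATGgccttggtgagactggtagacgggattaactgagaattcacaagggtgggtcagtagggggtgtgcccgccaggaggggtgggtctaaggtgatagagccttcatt
SOX2: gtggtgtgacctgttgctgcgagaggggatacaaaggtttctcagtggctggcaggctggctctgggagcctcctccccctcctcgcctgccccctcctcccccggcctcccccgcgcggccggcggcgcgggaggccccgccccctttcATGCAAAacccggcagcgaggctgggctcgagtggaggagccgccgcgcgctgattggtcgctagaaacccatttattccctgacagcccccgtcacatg
The capitals in NANOG are the composite motif, the octamer core TTTGCAT and the SOX core ACAATG with 1 base of any kind between them, which began 120 bases before the start of the gene. On either strand this motif was found in 3 of the 35116 promoter windows of RefSeq (0.00854%), each 250 bases before to 50 after a start, and the other windows belonged to NRARP and LOC105370047, genes named here after the match was seen. In SOX2 the capitals are the octamer core alone, as ATGCAAA on the strand shown, 100 bases before the start; the octamer core (TTTGCAT or ATGCAAA, also part of the composite) was in 4.46% of all windows. The SOX core (CATTGT or ACAATG), in 10.8% of all windows, was found in windows of LIN28B and TDGF1 and, within the composite motif, of NANOG. TATAAA or its other strand TTTATA, in 11.5% of all windows, was found among these genes in the window of NANOG alone, at the start of the gene. RefSeq windows were at hand for 7 of the 10 genes, and the windows of DNMT3B, DPPA4 and L1TD1 held none of these motifs. A match is a run of letters and not a measured binding site.

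The libraries held 4898287 to 5051448 expected counts, the authors' estimate of the reads from each gene. The detection floor was taken as 3 expected counts in a library, which is 0.594 to 0.612 counts per library total scaled to a common size (CPM), and floors and intervals here cover counting error only. Levels of different genes were compared as FPKM, which is the expected count scaled by gene length and library size. All 20 cardiomyocyte markers examined were listed and above the floor, with a median of 574 FPKM and with MYL7, MYL4 and TNNT2 at the top. Genes taken as markers of other cells were measured as well, and bulk RNA does not show whether other cells or the cardiomyocytes held them. TAGLN, ACTA2 and COL3A1 (636, 350 and 167 FPKM) led for fibroblasts and smooth muscle. KRT8, KRT18 and CLDN6 (453, 275 and 104) led for epithelium, and NES, SOX3 and MSI1 (197, 8.71 and 3.89) for neural progenitors. Lower were AFP, APOA1 and ALB (22.9, 18.2 and 1.96) for endoderm, MIXL1, MESP1 and WNT3 (9.26, 1.72 and 0.707) for early mesoderm, HAND1, KRT7 and NANOS3 (7.91, 3.94 and 0.323) for germ cells and trophoblast, and KDR, TEK and PECAM1 (5.63, 1.34 and 0.59) for endothelium. These were the 3 highest genes of each list. List medians were 25.0 FPKM for fibroblasts and smooth muscle, 11.6 for epithelium and 0.827 for neural progenitors. They were 0.307 for endoderm, 0.245 for early mesoderm, 0.144 for germ cells and trophoblast and 0.414 for endothelium. At or under the floor in all 6 libraries were 4 of 12 endoderm and 3 of 8 early mesoderm genes. So were 3 of 8 germ cell and trophoblast, 1 of 10 epithelial and 1 of 10 neural progenitor genes. The early mesoderm marker TBXT had at most 1 count. ACTA2, smooth muscle actin, was the 1 gene of all these lists that edgeR called in any comparison of groups, lower in co-treated than in control cells at a log2 fold change of -1.25 (95% interval -1.68 to -0.82; edgeR adjusted p = 0.0203). It was not called without co-treated replicate 1 (adjusted p = 0.157 by edgeR) or replicate 2 (0.349), and between alcohol and control it was at -1.04 with an edgeR adjusted p of 0.0797. The libraries differed in 2 myosin genes that were singled out after their values were seen. MYL2 had 3615 and 3347 counts in control replicate 2 and alcohol replicate 2 against 8990 to 11968 in the others, and MYH6 had 21667 and 21669 counts in the same 2 libraries against 8949 to 11543. In bulk RNA fewer cells of a type and less RNA per cell cannot be told apart.

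Pluripotency transcripts were low but measurable, with 1 near-absent gene, SOX2. Of the 10 genes, 8 had more than 10 expected counts in all 6 libraries, TDGF1 was above the floor in 5 of 6, and SOX2 in 1 of 6. Ordered by mean FPKM over the 6 libraries (± SD, n = 6), POU5F1 came first at 5.92 ± 2.26, followed by NANOG at 3.54 ± 1.11. DNMT3B (2.56 ± 0.54), DPPA4 (2.39 ± 0.75), SALL4 (2.27 ± 0.33) and LIN28B (2.16 ± 0.36) lay close together. LIN28A (1.54 ± 0.22), L1TD1 (0.96 ± 0.26) and TDGF1 (0.54 ± 0.20) were lower, and SOX2 was last at 0.118 ± 0.118. For scale, the mean FPKM of TNNT2, cardiac troponin T, was 587 times that of POU5F1, and the median gene of the series table had a mean of 3.96 FPKM. POU5F1 stood at percentile 57.5 of the listed genes, NANOG at 48.2, the next 4 between 41.1 and 43.3, and SOX2 at 12.2.

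Neighbours in this order differed in how steady their rank was. In all 9 pairs of neighbours the ranges over the 6 libraries overlapped, and of the 45 possible pairs 26 had ranges that did not meet. POU5F1 was above NANOG in 5 of 6 libraries and in 6 of 6 libraries LIN28B was above LIN28A, LIN28A above L1TD1 and TDGF1 above SOX2. DNMT3B was above DPPA4 in 3 of 6, DPPA4 above SALL4 in 4 and SALL4 above LIN28B in 3, so the order of these neighbours was not steady. Of the pairs that were not neighbours, DPPA4 was above LIN28B in 5 of 6, and DNMT3B was above SALL4 and LIN28B in 4 each. Differences between genes were not tested.

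**Figure D1:**
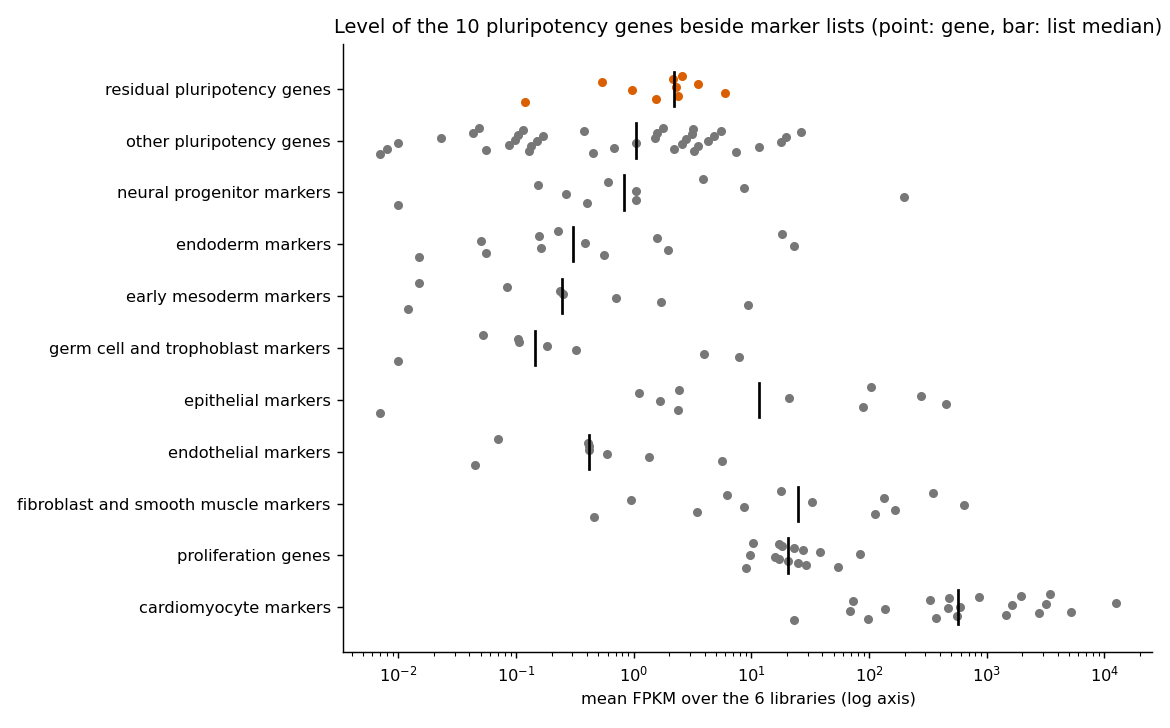
Mean FPKM over the 6 libraries (log axis) of each gene in 11 lists, 1 point per gene and a bar at the median of each list. The 10 residual pluripotency genes (orange) lie between 0.118 and 5.92 FPKM, with a median of 2.21, and the cardiomyocyte markers have a median of 574 FPKM.

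Among the core factors, POU5F1 (NCBI Gene 5460, chr6:31164337-31170682) had the highest level and, relative to counting noise, the largest spread. Its expected counts were 62.5 and 41.16 in control, 51.73 and 61.36 in alcohol and 103.23 and 43.6 in co-treated cells, or 5.97, 3.95, 5.18, 6.04, 10.18 and 4.19 FPKM. The high value belonged to co-treated replicate 1 alone, which held 28.8% of the CPM of POU5F1 summed over the libraries, where an equal share is 16.7%, and the ranges of the 3 groups overlapped. Over the 6 libraries its counts varied 9.06 times as much as counting noise, beyond the 90th percentile of 4.83 among the 6048 genes with a mean count of 10 to 100. Without that library the mean of the remaining 5 was 5.07 FPKM. In the same library 37 other pluripotency genes summed to 126.05 FPKM, within the range of the other libraries (110.24 to 143.82), and 8 early mesoderm markers to 11.78 FPKM (8.54 to 15.54). The first sum is weighted to its highest genes, LEFTY2, TERF1 and SEPHS1 (means of 26.4, 19.5 and 17.9 FPKM), and does not show how lower genes varied. Single genes of that list differed, as in CPM ESRG and VENTX were highest in this library and LEFTY2 and TERF1 in control replicate 2. They were named after their values were seen, and the cause of the high POU5F1 value was not tested.

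POU5F1 has near-identical copies, between which reads are divided by estimation. POU5F1B was listed at 4.16, 3, 0, 0, 3 and 4.21 counts, in the order of control, alcohol and co-treated libraries, and POU5F1P3 and POU5F1P4 at no more than 2.18. Adding these copies to POU5F1 gave 6.69, 4.33, 5.18, 6.04, 10.76 and 5.13 FPKM, with the same library highest.

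NANOG (NCBI Gene 79923, chr12:7789402-7799146), the homeobox factor whose promoter is shown above, had 26.34 and 34.41 counts in control, 56.96 and 26.7 in alcohol and 41.12 and 32.77 in co-treated cells. In FPKM these were 2.54 and 3.25, 5.5 and 2.66, and 4.09 and 3.18. Alcohol replicate 1 was the highest and the other alcohol library lay within the control range, so the groups overlapped. Its counts varied 3.54 times as much as counting noise. Its copies NANOGP1 and NANOGP8 were not listed in the series table, and other copies were not looked up.

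SOX2 (NCBI Gene 6657, chr3:181711925-181714436), the HMG-box partner of POU5F1, had 1 and 4 counts in control, 2 and 0 in alcohol, and 2 and 0 in co-treated cells. It was above the floor in control replicate 2 alone, and a count of 0 allows up to 3 counts. Over all libraries its 9 counts correspond to 0.300 CPM, with an exact Poisson 95% interval of 0.137 to 0.570. By group the estimates were 0.496 CPM (0.161 to 1.16) in control, 0.201 (0.0243 to 0.726) in alcohol and 0.202 (0.0244 to 0.728) in co-treated cells, so that no difference was detectable at this depth. SOX2-OT, a noncoding gene that overlaps SOX2, had at most 2.1 counts, and whether the counting used strand is not given in the sources used here. POU5F1 and NANOG were thus measured in all 6 libraries beside a SOX2 at the edge of detection.

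**Figure D2:**
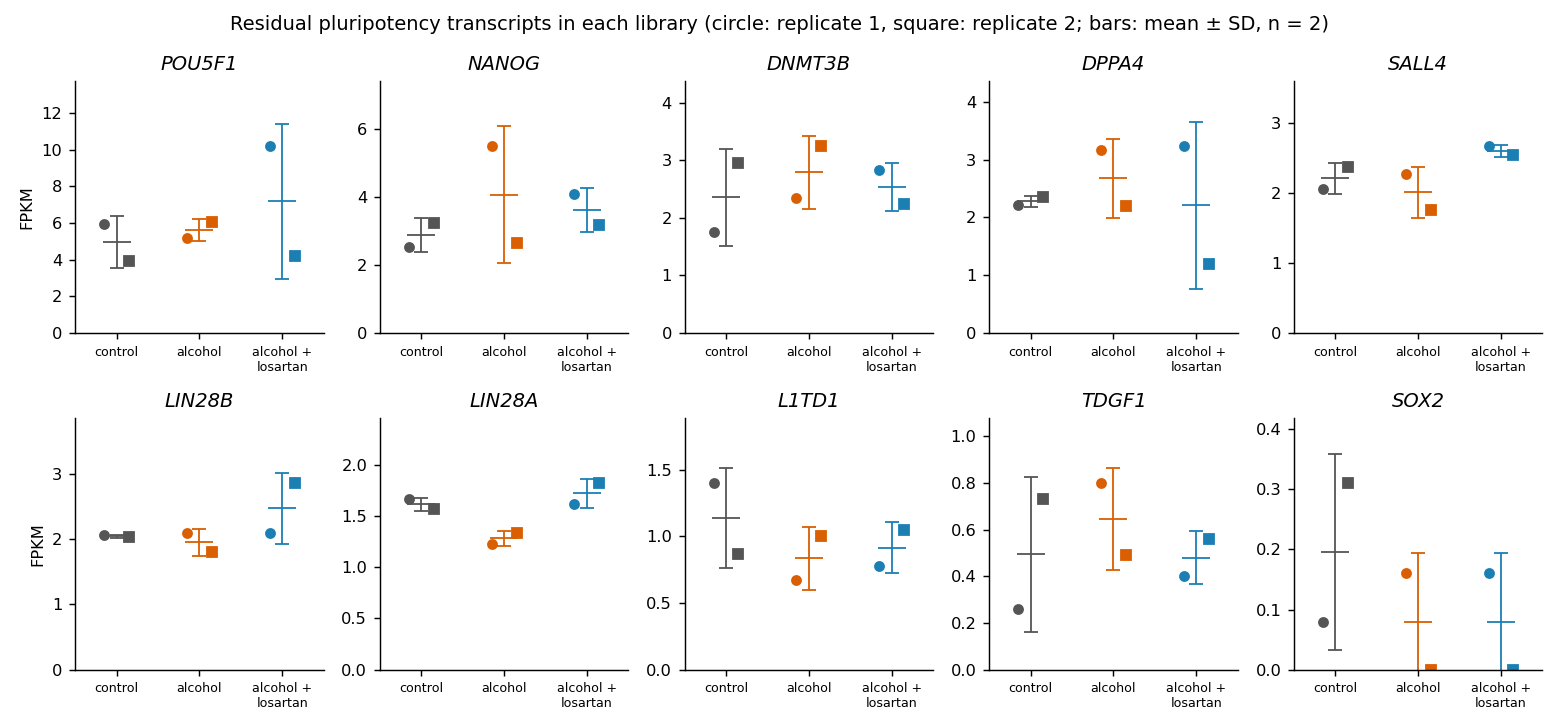
FPKM of each of the 10 genes in the 6 libraries, on axes that start at 0 and differ between panels, with replicate 1 as a circle, replicate 2 as a square and bars for mean ± SD (n = 2, cut off at 0 for SOX2). POU5F1 reaches 10.18 in co-treated replicate 1 and 3.95 to 6.04 elsewhere, and SOX2 stays at or under 0.31.

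SALL4 (NCBI Gene 57167, chr20:51782331-51802521), a partner of POU5F1 and NANOG in stem cells, had 47.53 and 46.94 counts in control, 55.43 and 41.79 in alcohol and 57.3 and 59.18 in co-treated cells, or 2.05, 2.36, 2.26, 1.75, 2.66 and 2.54 FPKM. Both co-treated libraries were above the others, by a margin smaller than the gap between the 2 alcohol libraries. Its counts varied 0.916 times as much as counting noise.

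Both LIN28 genes were measured in every library. LIN28A (NCBI Gene 79727, chr1:26410817-26429728), the form typical of pluripotent cells, had 34.07 and 32.02 counts in control, 25.23 and 26.41 in alcohol and 32.05 and 37.03 in co-treated cells. In FPKM it read 1.66 and 1.57, 1.23 and 1.33, and 1.62 and 1.82. The alcohol libraries were the lowest and did not overlap with either of the other groups. Groups did not overlap for 43.8% of all genes tested between alcohol and control, and for 33.6% between co-treated and alcohol cells.

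LIN28B (NCBI Gene 389421, chr6:104937026-105083332), the paralog that persists longer in development, had 58 and 57 counts in control, 59 and 49 in alcohol and 57 and 80 in co-treated cells, or 2.06, 2.03, 2.1, 1.8, 2.09 and 2.86 FPKM. Co-treated replicate 2 was the highest, and the other co-treated library was between the alcohol libraries. The counts of LIN28A varied 0.629 times and those of LIN28B 1.69 times as much as counting noise. LIN28B-AS1, which overlaps LIN28B, had 0, 0, 1, 4, 0 and 1 counts.

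Mature sequences from RefSeq (GRCh38.p14) are shown for a pair of let-7 microRNAs, whose maturation LIN28 blocks, and for miR-302d. The seed, bases 2 to 8, is in capitals. The let-7 pair is at chr9:94178841-94178862 and chr9:94176353-94176374 (plus strand) and shares 1 seed, and miR-302d, from a cluster that POU5F1 and SOX2 activate in stem cells, is at chr4:112648006-112648028 (minus strand) with another.
let-7d-5p: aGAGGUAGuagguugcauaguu
let-7f-5p: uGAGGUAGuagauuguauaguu
miR-302d-3p: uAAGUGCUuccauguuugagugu
MIRLET7D and MIRLET7F1 were listed at 1 count each in alcohol replicate 1 and MIR302D at 1 count in control replicate 1. Counts of these short genes in such libraries do not measure the mature microRNAs.

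L1TD1 (NCBI Gene 54596, chr1:62194849-62212328) had 28.49 and 17.56 counts in control, 13.63 and 19.8 in alcohol and 15.41 and 21.22 in co-treated cells, or 1.4, 0.87, 0.67, 1, 0.78 and 1.05 FPKM. Control replicate 1 was the highest, and the other control library lay inside the range of both treated groups. The spread was 1.38 times counting noise.

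DNMT3B (NCBI Gene 1789, chr20:32762385-32809356) had 36 and 62 counts in control, 48 and 63 in alcohol and 56 and 45 in co-treated cells, or 1.76, 2.95, 2.34, 3.24, 2.83 and 2.24 FPKM. The control libraries were almost as far apart as the whole range. DNMT3A, the other de novo methyltransferase and the one more used by differentiated cells, had a mean of 25.6 FPKM (23.11 to 29.7), and its range did not meet that of DNMT3B. DNMT3L, their cofactor in germ cells and stem cells, had 1 count in 1 library.

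DPPA4 (NCBI Gene 55211, chr3:109326144-109339636) had 31.63 and 33.51 counts in control, 45.2 and 30.37 in alcohol and 44.8 and 16.91 in co-treated cells, or 2.21, 2.35, 3.16, 2.19, 3.23 and 1.19 FPKM. In FPKM its lowest and highest libraries were the 2 co-treated replicates, so the whole range of the gene lay within 1 group. DPPA2, its binding partner, had 1 count in 1 library.

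TDGF1 (NCBI Gene 6997, chr3:46574535-46582457, named CRIPTO in RefSeq) had 2.36 and 6.55 counts in control, 7.15 and 5.25 in alcohol and 3.45 and 5.01 in co-treated cells, or 0.26, 0.73, 0.8, 0.49, 0.4 and 0.56 FPKM. Control replicate 1 was at or under the floor and the other 5 libraries were above it. Its copy TDGF1P3 had 11, 5.51, 4.22, 5.52, 7.21 and 3.35 counts, more than TDGF1 in 3 of 6 libraries, so the level of TDGF1 is uncertain. The 2 genes together had 13.36, 12.06, 11.37, 10.77, 10.66 and 8.36 counts. These sums varied less than TDGF1 alone, and control replicate 1, the lowest for TDGF1, was the highest for the sum.

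The genes did not peak in the same library. In CPM co-treated replicate 2 was the highest for 3 of the 10 (SALL4, LIN28A and LIN28B), co-treated replicate 1 for 2 (POU5F1 and DPPA4), alcohol replicate 1 for 2 (NANOG and TDGF1), and control replicate 1 (L1TD1), control replicate 2 (SOX2) and alcohol replicate 2 (DNMT3B) for 1 each, while in FPKM SALL4 was highest in co-treated replicate 1. The FPKM of the 10 genes summed to 19.99 and 20.37 in control, 23.4 and 20.5 in alcohol and 28.04 and 19.63 in co-treated cells. The co-treated replicates held both the highest and the lowest sum. Without POU5F1 the sums were 14.02, 16.42, 18.22, 14.46, 17.86 and 15.44 FPKM, and the highest library became alcohol replicate 1.

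**Figure D3:**
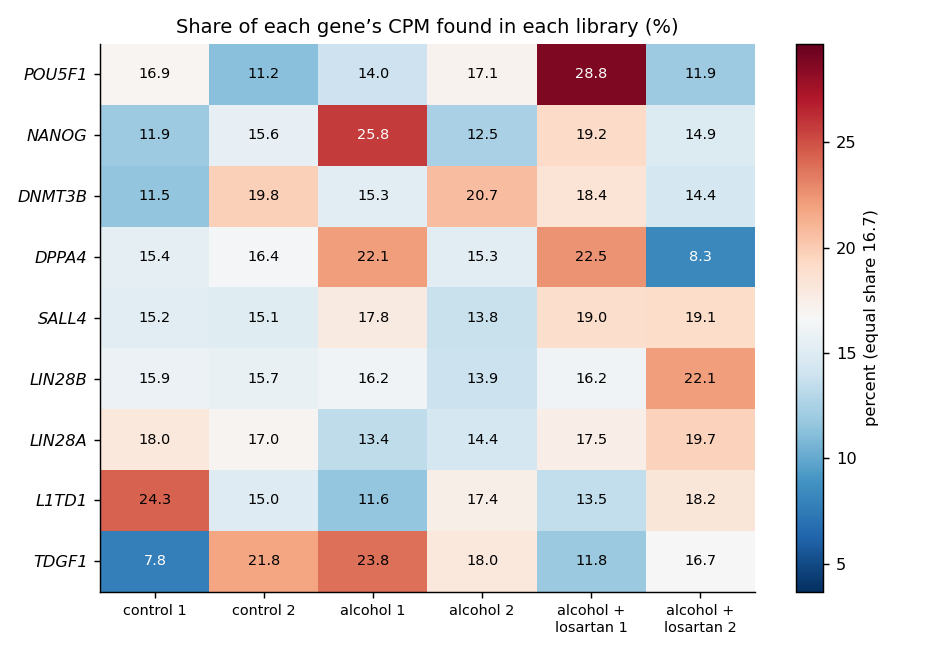
Share of each gene's CPM found in each library, in percent (an equal share is 16.7), for 9 of the 10 genes (SOX2, with 9 counts in all, is left out). Red cells are spread over different libraries for different genes, and the largest share is 28.8% for POU5F1 in co-treated replicate 1.

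The first comparison asks whether 24 h of alcohol changed these transcripts. The test was edgeR's quasi-likelihood test, run on the 14926 genes left by its filter on low counts and adjusted over all of them by Benjamini-Hochberg, with calls made at 0.05. Of the 10 genes 8 passed the filter, and SOX2 and TDGF1 did not. Between alcohol and control, edgeR called 0 of the 8, where 0.0670% of all genes were called. At an unadjusted p under 0.05 it also called 0 of the 8 (11.0% of all genes), and so did DESeq2. With limma on log2(FPKM + 1) 0 were called, adjusted or not. DESeq2 gave none of the 8 an adjusted p here, so its adjusted calls could not include them. The largest differences in size were NANOG, at a log2 fold change of 0.47 (95% interval -0.34 to 1.28), L1TD1 at -0.46 (-1.38 to 0.47) and LIN28A at -0.39 (-1.07 to 0.29; edgeR adjusted p = 0.711). LIN28A, lower in both alcohol libraries than in both controls, was the 1 gene of 8 whose groups did not overlap, where 43.8% of all genes tested had such groups (21.8% lower). For POU5F1 the difference was 0.11 (-0.67 to 0.90), for SALL4 0.01 (-0.55 to 0.57), for LIN28B -0.11 (-0.67 to 0.45), for DNMT3B 0.16 (-0.48 to 0.80) and for DPPA4 0.17 (-0.71 to 1.05). The median of the 8 was 0.06 beside -0.003 for all genes. NANOG was 0.47 with both alcohol libraries and -0.18 without alcohol replicate 1, so its sign rested on that library, and DNMT3B turned to -0.16 without control replicate 1. L1TD1 came to -0.078 without control replicate 1.

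The comparison of co-treated with alcohol cells asks whether losartan changed the transcripts on top of alcohol. By edgeR 0 of the 8 genes were called, where 0.0134% of all genes were, and 0 of the 8 had an unadjusted p under 0.05 (5.55% of all genes). DESeq2 gave the same counts, while limma on log2(FPKM + 0.1) put 1 of the 8 under an unadjusted 0.05 and called 0. LIN28A had the largest difference, 0.43 (-0.25 to 1.11; edgeR adjusted p = 0.923), followed by POU5F1 at 0.38 (-0.38 to 1.13) and LIN28B at 0.34 (-0.21 to 0.88). SALL4 was at 0.25 (-0.30 to 0.80). SALL4 and LIN28A were higher in both co-treated libraries than in both alcohol libraries, 2 of 8, where 33.6% of all genes did not overlap (17.4% higher and 16.2% lower). DPPA4 was at -0.28 (-1.17 to 0.61), NANOG at -0.19 (-0.98 to 0.60), DNMT3B at -0.14 (-0.78 to 0.50) and L1TD1 at 0.08 (-0.88 to 1.04). The intervals of all 8 genes in this comparison included 0. The sign of POU5F1 rested on 1 library, since its difference was -0.37 without co-treated replicate 1. Likewise DPPA4 came to 0.26 without co-treated replicate 2, NANOG to 0.46 without alcohol replicate 1, and LIN28B to 0.076 without co-treated replicate 2.

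Between co-treated and control cells edgeR again called 0 of the 8 genes, against 0.362% of all genes. At an unadjusted p under 0.05 it called 0 of the 8 (12.6% of all genes), as did DESeq2 and limma. Adjusted calls were 0 by both, and DESeq2 gave no adjusted p for L1TD1. POU5F1 had the largest difference, 0.49 (-0.28 to 1.25; edgeR adjusted p = 0.631), and it became -0.25 without co-treated replicate 1. L1TD1 was at -0.38 (-1.30 to 0.55), NANOG at 0.28 (-0.54 to 1.10), SALL4 at 0.26 (-0.29 to 0.82) and LIN28B at 0.23 (-0.31 to 0.77). DPPA4 (-0.11, -1.01 to 0.79), LIN28A (0.04, -0.62 to 0.70) and DNMT3B (0.02, -0.63 to 0.67) were closest to 0. The groups of SALL4 alone did not overlap, 1 of 8 and higher, where 43.3% of all genes did not (21.6% higher and 21.7% lower). DPPA4 came to 0.43 without co-treated replicate 2, LIN28B to -0.03 without the same library, DNMT3B to -0.31 without control replicate 1, and L1TD1 to -0.011 without that control library. The 3 comparisons share groups, so they are no independent evidence of one another. With 2 libraries a group an exact permutation test of 1 gene cannot go under a two-sided p of 0.333.

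**Figure D4:**
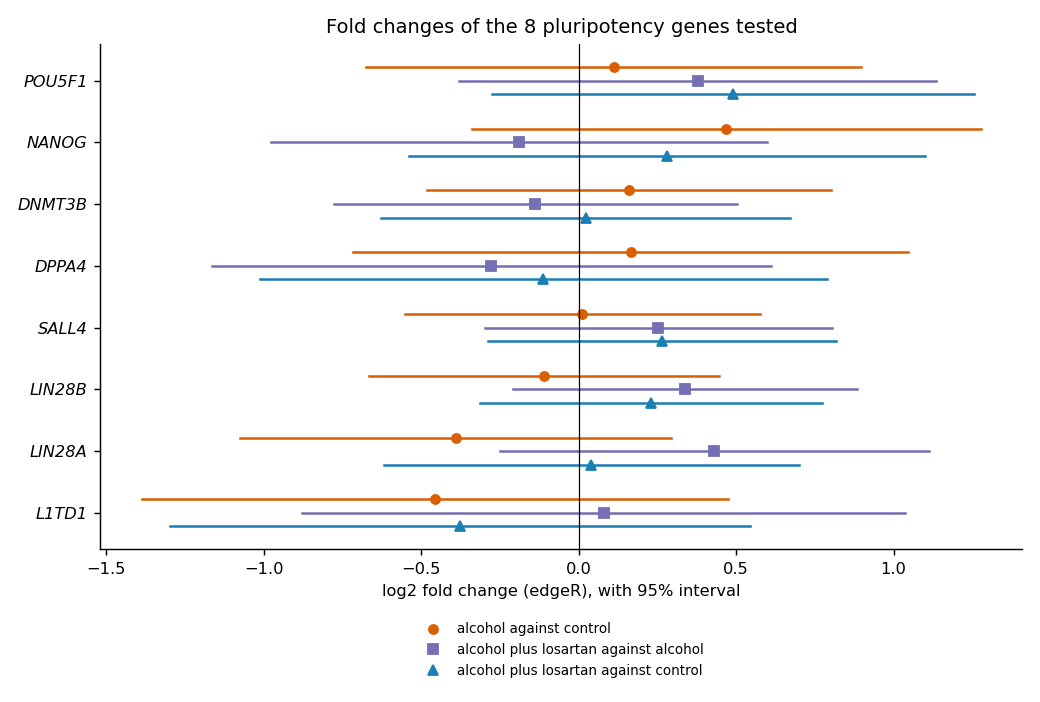
log2 fold change by edgeR (x axis) with its 95% interval for the 8 genes tested, in 3 comparisons marked by circle, square and triangle. All 24 intervals include 0, and the largest estimate is 0.49 for POU5F1 between co-treated and control cells.

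Other genes of the pluripotent state were mixed in level. Of 44 further pluripotency genes 37 were listed, with a median of 1.05 FPKM beside 2.21 for the 10, and 8 of them were at or under the floor in all 6 libraries, among them GDF3, NODAL, NR0B1 and TFCP2L1. LEFTY2, a secreted Nodal antagonist, was the highest at 26.4 FPKM, followed by TERF1, a telomere-binding protein, at 19.5 and SEPHS1, a selenophosphate synthetase homolog, at 17.9. Of the 20 that passed the filter edgeR called 0 in each of the 3 comparisons, with 0, 2 and 4 at an unadjusted p under 0.05. Of all genes tested, 11.0%, 5.55% and 12.6% were under that p.

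LEFTY2 came nearest to a call. It had 322.69 and 360 counts in control, 307.87 and 300 in alcohol and 239.13 and 195 in co-treated cells, 3 groups that did not overlap. In the single comparisons 43.8%, 33.6% and 43.3% of all genes tested had groups that did not overlap, and the share with all 3 groups apart was not computed. Between co-treated and control the log2 fold change of LEFTY2 was -0.68 (-0.99 to -0.36) with an edgeR adjusted p of 0.0704, and it was not refitted with a library left out. TERF1 differed by -0.55 (-0.83 to -0.27) in the same comparison, with an edgeR adjusted p of 0.0911. LEFTY1, the paralog of LEFTY2 that is high in stem cells, had at most 3.13 counts, and NODAL, the ligand that both antagonise, at most 2.

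The pathways around single members were also measured. With members included, the median level was 11.2 FPKM in the axis of LIN28 and let-7, 8.97 in DNA methylation, 4.53 in the Nodal pathway and 0.828 in the SALL and SOX families. In the axis of LIN28 and let-7, 22 genes were listed and 21 tested, and HMGA1, IGF2BP1 and IGF2BP3, all known targets of let-7, stood highest at 49.5, 28.1 and 26.6 FPKM. By edgeR 0 of the 21 were called in each comparison, with 0, 1 and 4 at an unadjusted p under 0.05 (11.0%, 5.55% and 12.6% of all genes). The last 4, between co-treated and control cells, were HMGA1 at a log2 fold change of -0.36 (-0.64 to -0.08; edgeR adjusted p = 0.265) and 3 genes named after their values were seen. PRTG was at 0.44 (0.15 to 0.73; edgeR adjusted p = 0.186), DGCR8 at -0.40 (-0.74 to -0.07) and MYCN at -0.47 (-0.94 to -0.01), so they lay on both sides of 0.

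Of the DNA methylation genes 12 were tested and 0 called by edgeR in each comparison (1, 1 and 2 at an unadjusted p under 0.05). Of all genes 11.0%, 5.55% and 12.6% were under that p, shares that also stand beside the bracketed counts of the next lists. DNMT3A, MBD1 and MBD3 were the highest, the last 2 being methyl-CpG-binding domain proteins. Of the Nodal pathway 13 were tested and 0 called (0, 1 and 2), and its highest genes were LEFTY2, FURIN, a convertase that processes Nodal, and ACVR1B, a type I receptor, at 26.4, 20.4 and 15.97 FPKM. Of the SALL and SOX families 12 were tested and 0 called (0, 2 and 0). SOX12, SOX4 and SALL2 led these families at 20.4, 20.1 and 11.0 FPKM, and their ranges were all above those of SALL4 and SOX2.

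Proliferation genes are given beside these results, since pluripotent cells divide and most cardiomyocytes do not. Their 15 genes summed to 373 and 550 FPKM in control, 294 and 329 in alcohol and 459 and 386 in co-treated cells, and the alcohol libraries were the lowest. TYMS, PCNA and TOP2A stood highest at 83.6, 54.6 and 38.4 FPKM. Between alcohol and control edgeR called 0 of the 15, although 12 were lower at an unadjusted p under 0.05 (11.0% of all genes, either direction). The median log2 fold change was -0.59 beside -0.003 for all genes. In the same comparison the median of the 8 pluripotency genes tested was 0.06. Between co-treated and alcohol cells edgeR called 0 and all 15 were higher, 9 at an unadjusted p under 0.05 (5.55% of all genes, either direction). The median was 0.37 there, beside 0.17 for the 8 pluripotency genes. Of the 10 genes LIN28A was the 1 with both alcohol libraries below both other groups. Among the further pluripotency genes ZFP42, ESRRB and VENTX, named here after their values were seen, showed the same. The share of all genes with this pattern was not computed. In single comparisons, 21.8% of all genes tested were lower in alcohol than in control without overlap. For co-treated above alcohol cells it was 17.4%. The part of proliferating cells in these values was not tested.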

How the data were processed

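Groups were taken from the treatment in the labels and replicate numbers from the titles. Per library, the deposited tables hold an expected count, a transcript length and an FPKM for every gene with reads, and a series table made by the authors pairs the same FPKM with symbols. The submitters' processing notes name HISAT2 2.0.4, Bowtie2 2.2.5, RSEM 1.2.12 and hg38, with no role or order, and whether counting used strand is not given in the sources used here. Of the deposited expected counts above 0, 33.9% were not whole, and they were rounded for the tests. Genes missing from a library's table were set to 0.

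edgeR 4.0.16 (quasi-likelihood, TMM, filterByExpr with a minimum count of 10, all 6 libraries in 1 fit, two-sided) was the main test, in R 4.3.3, with limma 3.58.1 and DESeq2 1.42.0 as alternatives. On simulated data with 14692 genes (alcohol against control) it found 69.1% of the genes changed by 1 on the log2 scale, 89.9% of the genes changed by 2, and made 9 false calls. The changed genes were drawn at random from all count levels, so these rates need not hold for the low counts of the pluripotency genes. In the real comparison of alcohol with control, ACTA2 was at -1.04 and was not called. Replicates correlated at r = 0.978, 0.975 and 0.975 (log2 CPM, across genes) and differed by 4.54, 7.30 and 4.46 times counting noise. The noise ratio of a gene is the variance of its counts, corrected for library size, over that of counting.

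Coordinates, promoters and microRNAs are those of RefSeq on GRCh38.p14, a patch release of the assembly also called hg38, and were matched by NCBI Gene number. The members and lists were chosen with earlier results of these data known. Named genes are all members, of each other list the genes called, the 3 of highest mean FPKM and markers at the floor, and copies of members. Sums with copies and without POU5F1, and the alternatives for ACTA2, were chosen after seeing the data.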

Additional observations from a re-analysis of the deposited data

How the results depend on the processing

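The number of the 8 tested genes called was 0 in each of the 3 comparisons under every alternative run: DESeq2, limma on log2(FPKM + 1) and log2(FPKM + 0.1), other size factors, no expression filter (where all 10 genes were tested), at least 10 counts in every library, only the libraries compared, and each library left out (0 to 0). Deviations of same-numbered libraries correlated weakly, at 0.114 (control and alcohol), -0.016 (control and co-treated) and 0.041 (alcohol and co-treated). This does not settle whether replicate numbers pair the samples, and control replicate 2 and alcohol replicate 2 shared the MYL2 and MYH6 levels given above. With the replicate block the number of the 8 genes called was also 0 in each comparison. All genes called went from 10, 2 and 54 to 48, 5 and 136. Counts over all genes depended on the tool: DESeq2 called 72, 5 and 123 and limma on log2(FPKM + 1) called 0, 1 and 1. DESeq2 gave no adjusted p for the 8 genes between alcohol and control, nor for L1TD1 between co-treated and control cells. Its 0 adjusted calls for them were thus fixed beforehand. The number of genes at or under the floor in all libraries was 0, became 2 with a floor of 10 counts (SOX2 and TDGF1) and 2 with an FPKM of 1 (the same genes), and lay between 0 and 1 with a library left out, SOX2 being under the floor without control replicate 2.

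Between alcohol and control SALL4 turned from 0.01 to -0.10 with limma on log2(FPKM + 1) and to -0.14 on log2(FPKM + 0.1), and from -0.20 to 0.21 with a library left out. With a library left out, the log2 fold changes ran from -0.15 to 0.47 for POU5F1, -0.18 to 0.92 for NANOG, -0.26 to 0.036 for LIN28B, -0.16 to 0.60 for DNMT3B and -0.16 to 0.45 for DPPA4 between alcohol and control. Between co-treated and alcohol cells they ran from -0.37 to 0.86 for POU5F1, -0.64 to 0.46 for NANOG, -0.18 to 0.34 for L1TD1, -0.31 to 0.051 for DNMT3B and -1.14 to 0.26 for DPPA4. Between co-treated and control cells they ran from -0.25 to 0.98 for POU5F1, -0.064 to 0.14 for LIN28A, -0.032 to 0.45 for LIN28B, -0.31 to 0.45 for DNMT3B and -0.98 to 0.43 for DPPA4. Outside these genes, ACTA2 (co-treated against control) kept its direction but was not called with limma on either scale, without an expression filter (edgeR adjusted p = 0.053) or without either co-treated library. The cause was not tested. A lone library left in a group is assumed to vary like those of the other groups. SOX2 and TDGF1 were tested only without the expression filter, and the labels name no batch.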
